A study of Mus musculus with 6 samples.

Results

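The nociceptor channels and neuropeptides followed here are 10 genes: the voltage-gated sodium channels Scn9a, Scn10a and Scn11a, the receptors and ligand-gated channels Trpv1, P2rx3 and Mrgprd, the peptide precursors Calca, Calcb and Tac1, and Avil. They were taken as every non-control probe whose gene name in the scanner files equals one of these symbols, which gave 20 probes for the 10 genes, out of 56605 probes for 37067 named genes. The list was drawn up with the differences between these arrays known, so every value given for its members is a description and carries no test.

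The study measured cochlear RNA of female C57BL/6 mice aged 6 weeks on Agilent arrays with a single dye, 6 in all and 1 for each group. The baseline group had neither noise nor an injection, and the noise only group had 2 h of intense noise, with no time between noise and sampling in the labels. The other 4 groups had the same 2 h of noise and directly afterwards an intraperitoneal injection of either control saline or dexamethasone, a synthetic glucocorticoid, at 10 mg/kg, and were sampled at 12 h or 24 h. All groups thus share strain, sex, age and tissue, and no group received dexamethasone without noise. The design text gives 6 mice for each group, and says nothing of whether their RNA was pooled. With 1 array per group no difference has a replicate check, and each is a difference between 2 arrays.

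Nociceptors are the sensory neurons that respond to damaging heat, pressure and chemicals, and their cell bodies lie in the dorsal root, trigeminal and vagal ganglia. They are told apart from other sensory neurons by sodium channels that resist tetrodotoxin, by heat- and ATP-gated channels, and by peptides that they release both in the spinal cord or brainstem and at their peripheral endings, where these widen blood vessels. In the ear, peptide-containing trigeminal fibres run along cochlear blood vessels, and calcitonin gene-related peptide (CGRP) is also a transmitter of the efferent fibres that reach the organ of Corti. In bulk tissue such as this, fewer cells of a type and less RNA per cell cannot be told apart.

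The level of a probe is the log2 of its background-corrected brightness minus the log2 75th percentile of that array's non-control spots, so 0 is the brightness of a spot at that percentile. Levels are compared between arrays for 1 probe and never between probes. A gene counts as measured in a comparison when it stood well above background, by the scanner software's flag, on both arrays. An interval is 1.96 times the software's error for the spots, typically 0.40 on either side of a log2 difference, and covers spot error only. Values on the 6 arrays are always listed as baseline, noise only, then saline and dexamethasone at 12 h, then saline and dexamethasone at 24 h.

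The probes shown here are those that say which transcript was read. The Trpv1 probe, at chr11:73073950-73074009 (mm9, plus strand), ends on the stop codon of the channel's reading frame, in capitals. The Tac1 and Avil probes, at chr6:7507722-7509136 and chr10:126453541-126454065 (mm9, plus strand), each join 2 exons, so they match spliced RNA and not the gene's DNA. The Tac1 probe covers the stretch that codes for neurokinin A. The Scn10a probe at chr9:119518293-119518352 (mm9, minus strand) is shown because its differences between arrays were smaller at 12 h than those of the brightest Scn10a probe. Of both Calca probes the last 30 bases are given, since they fall on different transcripts: the CGRP transcript (chr7:121775204-121775263, mm9, minus strand), with the polyadenylation hexamer in capitals, and the calcitonin transcript (chr7:121776832-121776891, mm9, minus strand).
Trpv1: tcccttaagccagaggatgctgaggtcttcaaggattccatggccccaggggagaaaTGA
Tac1: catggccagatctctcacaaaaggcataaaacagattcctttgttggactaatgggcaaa
Avil: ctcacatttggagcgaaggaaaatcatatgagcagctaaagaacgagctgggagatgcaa
Scn10a: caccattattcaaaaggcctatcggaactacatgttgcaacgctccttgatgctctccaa
Calca, CGRP transcript: atccAATAAAcatgacagcatggttctggc
Calca, calcitonin transcript: tagtcttgcttctggaagtgttggttgttt
No probe of Calca shared a run of more than 6 bases with the Calcb probe, and among the probes of the 3 sodium channels the longest shared run was also 6 bases.

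The 6 arrays had a 75th percentile signal of 743 to 952 and 63.0% to 70.3% of their probes well above background, with 0 saturated spots. Both 12 h arrays were on slide 2 and in scan 2, and the other 4 on slide 1 and in scan 1, per the file headers. Slide, scan and time therefore cannot be told apart where a 12 h array is set against baseline, whereas dexamethasone and saline lie on the same slide at each time. Of 10 hair cell genes, 8 or 9 were well above background on each array, with Slc26a5, the motor protein of outer hair cells, at background throughout. The noise only, saline 12 h and saline 24 h comparisons all use the baseline array, and each dexamethasone comparison uses a saline array that is also set against baseline, so their values are given side by side and not as support for each other.

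Across the arrays the members followed nearly the same order. For the 8 that were well above background on all arrays, dexamethasone 24 h was the highest array for 8 of 8 and baseline came next for 8 of 8. For Calca, Calcb, P2rx3 and Tac1 these arrays lay within spot error of each other. Noise only and dexamethasone 12 h took the middle places, 4 members each way. Saline 24 h came next to last and saline 12 h lowest for 7, with the places swapped for P2rx3. The members were chosen with these differences known, and the order was not counted over all genes. Nothing is therefore read from the shared order. Scaling on the E1A probes, which read control RNA spiked in at labelling, put saline 12 h lowest for 8 of 8 and baseline above dexamethasone 24 h for 4 of 8, namely Calca, Calcb, P2rx3 and Tac1. Relative to baseline, the median of the 8 was -0.33 on noise only, -2.03 on saline 12 h, -0.39 on dexamethasone 12 h, -1.55 on saline 24 h and 0.41 on dexamethasone 24 h.

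**Figure D1:**
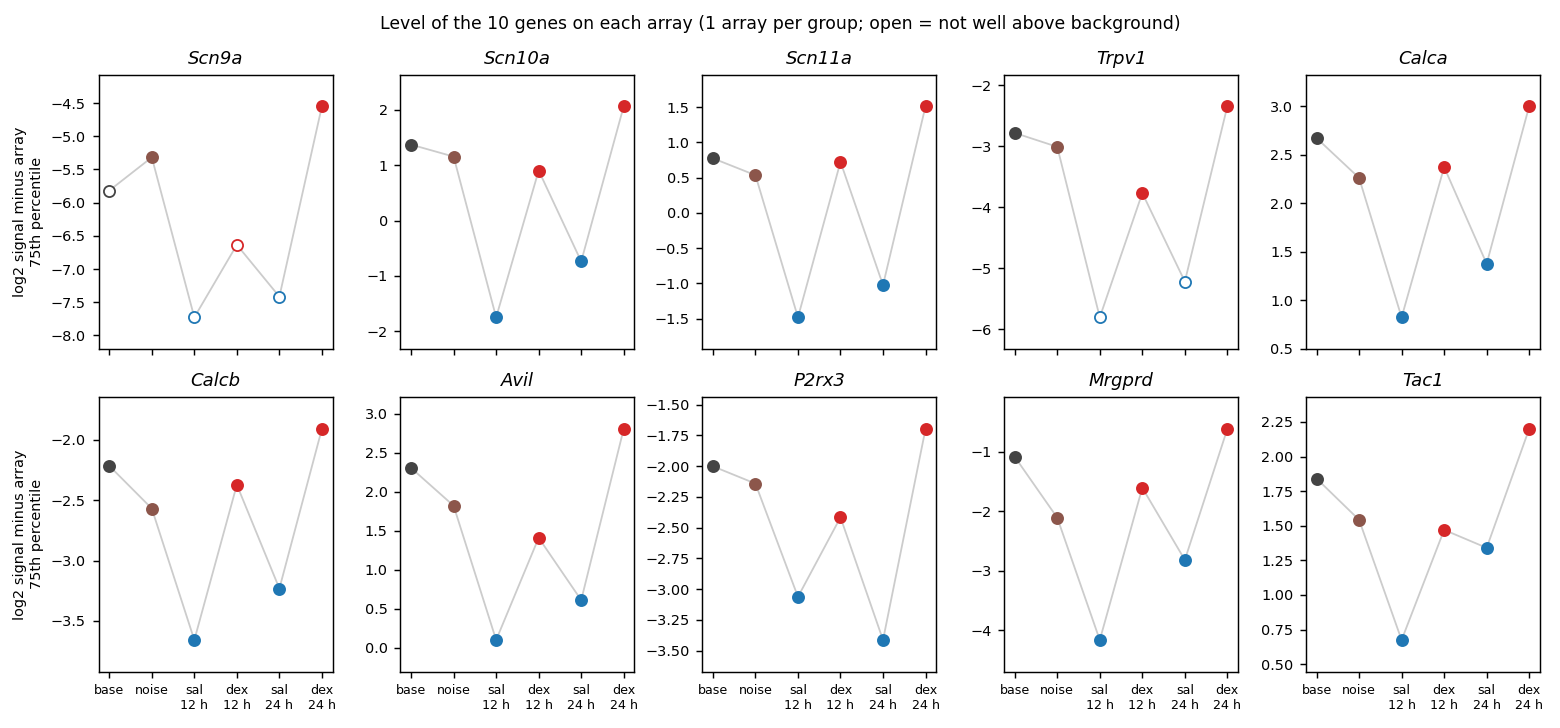
Level of each of the 10 genes on the 6 arrays, as log2 signal minus the array's 75th percentile; the points are single arrays, open points were not well above background, and each panel has its own vertical range. The 8 genes measured on all arrays have their highest point at dexamethasone 24 h (baseline is higher for 4 of the 8 with spike-in scaling) and their lowest at a saline array, saline 12 h for 7 of them.

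The sodium channels Scn10a and Scn11a, which encode the tetrodotoxin-resistant channels Nav1.8 and Nav1.9, ranged 14.0-fold and 7.96-fold from the lowest array to the highest. Scn10a had signals of 2315, 2119, 222, 1512, 510.1 and 3599 on the 6 arrays. Its levels were 1.37, 1.15, -1.75, 0.90, -0.74 and 2.06. The saline arrays stood apart from the other 4, with saline 12 h lowest. Baseline, noise only and dexamethasone 12 h, in that order, each lay within spot error of the next. Dexamethasone 12 h was nevertheless past spot error from baseline, at -0.47 (interval -0.87 to -0.067). Saline 12 h was 8.68-fold below baseline (interval 6.57 to 11.5) and saline 24 h was 4.31-fold below it. Dexamethasone was 6.28-fold above saline at 12 h (4.75 to 8.29) and 6.97-fold above it at 24 h (5.28 to 9.20).

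Scn10a had 3 probes, and the 2 others did not all repeat these sizes or, for saline 24 h against baseline, the sign. The probe printed above gave levels of -2.47, -2.76, -3.34, -2.81, -4.24 and -1.94, so that here saline 24 h, not saline 12 h, was lowest. Its saline difference from baseline was -0.87 at 12 h and -1.77 at 24 h, and its dexamethasone difference from saline was 0.53 at 12 h and 2.29 at 24 h. The last probe, at chr9:119556320-119556379 (mm9, minus strand), was well above background on the 24 h arrays alone, with a signal of 29.9 for saline and 260 for dexamethasone. Its baseline signal was 14.9, at background. On this probe saline 24 h was thus above baseline, by 1.08 (log2), opposite in sign to the brightest probe. The first 2 probes thus differ in how far saline lay below dexamethasone at 12 h. The last probe was at background on both 12 h arrays, so its difference there was not measured.

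Scn11a had a single probe, with levels of 0.77, 0.53, -1.48, 0.72, -1.02 and 1.51. Baseline, dexamethasone 12 h and noise only followed each other within spot error, and the saline arrays lay below all of them. Saline was 4.77-fold below baseline at 12 h and 3.48-fold at 24 h, and dexamethasone was 4.61-fold above saline at 12 h and 5.80-fold at 24 h. Scn9a, which encodes Nav1.7, the channel whose loss in people abolishes pain, was near the limit of the array. Its signals were 15.9, 23.9, 3.51, 8.14, 4.98 and 36.8, and only the noise only and dexamethasone 24 h arrays were well above background. For Scn9a a bound alone can be given, from the levels and without spot error. It was 1.39-fold for noise only above baseline and 1.5-fold for dexamethasone 24 h above saline 24 h. The intervals of these log2 differences were -0.30 to 1.30 and -0.0030 to 5.74, so neither lay past spot error. The other Scn9a probe was at background on all arrays.

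Trpv1, the channel opened by heat and capsaicin, had signals of 130.2, 118.2, 13.3, 59.4, 22.8 and 169.7. Both saline arrays were at background and the other 4 were well above it. With the dim array set at the lowest brightness it could still tell from background, bounds follow that leave out spot error. By these, saline was at least 7.87-fold below baseline at 12 h and at least 5.12-fold at 24 h. Dexamethasone was at least 3.97-fold above saline at 12 h and at least 6.94-fold at 24 h. A bound of this kind sets the level of the brighter array against the higher of that lowest brightness and the dim probe's own. It does not say how far below the true level lies. With spot error, the intervals of the log2 differences reach smaller sizes. They were -3.82 to -2.23 and -3.24 to -1.64 for saline against baseline at 12 h and 24 h. For dexamethasone against saline they were 1.22 to 2.85 and 2.08 to 3.68.

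P2rx3, the ATP-gated channel of nociceptors, was lower with saline by the least of the measured genes at 12 h. Its brightest probe gave -2.00, -2.14, -3.06, -2.42, -3.41 and -1.70. Saline 24 h, not saline 12 h, was lowest, although the saline arrays were within spot error of each other. The differences were 2.09-fold below baseline for saline 12 h, 2.66-fold below for saline 24 h, 1.57-fold above saline for dexamethasone 12 h and 3.29-fold above for dexamethasone 24 h. Both other P2rx3 probes had saline below baseline too, by -0.56 and -0.66 at 12 h and by -0.41 and -1.20 at 24 h. At 12 h their dexamethasone differences from saline were 0.26 and 0.04, and at 24 h 1.08 and 1.66. Both of these 12 h differences were under the typical spot error of 0.40, and on 1 of the 3 probes the difference was close to nothing.

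Mrgprd, a G protein-coupled receptor of the non-peptidergic nociceptors of the skin, gave -1.09, -2.11, -4.16, -1.60, -2.82 and -0.62. No neighbouring arrays in its order lay within spot error. Mrgprd was the sole member 2-fold apart between noise only and baseline, 2.03-fold lower on noise only. Saline was 8.44-fold below baseline at 12 h and 3.32-fold at 24 h, and dexamethasone was 5.88-fold above saline at 12 h and 4.60-fold at 24 h.

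Calca and Calcb encode the alpha and beta forms of CGRP, a vessel-widening peptide. The Calca probe for the CGRP transcript gave 2.67, 2.26, 0.82, 2.37, 1.38 and 3.00. Dexamethasone 24 h, baseline, dexamethasone 12 h and noise only, in that order, each lay within spot error of the next. Noise only was nevertheless past spot error from baseline, at -0.41 (interval -0.81 to -0.011). Both saline arrays lay below these 4. Saline was 3.61-fold below baseline at 12 h and 2.46-fold at 24 h, and dexamethasone was 2.93-fold above saline at 12 h and 3.09-fold at 24 h. Calcb, from a gene of its own, like Calca on chromosome 7, gave -2.21, -2.57, -3.66, -2.37, -3.23 and -1.91. Its differences were smaller, with saline 2.72-fold and 2.02-fold below baseline at 12 h and 24 h, and dexamethasone 2.44-fold and 2.50-fold above saline.

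Calca is spliced into either CGRP, the form of neurons, or calcitonin, the form of thyroid C cells, and the calcitonin probe ran differently from the CGRP probe. It gave -2.12, -1.14, -1.13, -0.92, -1.08 and -1.60, so baseline was its lowest array. Against baseline it was higher by 0.98 on noise only, 0.98 on saline 12 h, 1.20 on dexamethasone 12 h, 1.04 on saline 24 h and 0.52 on dexamethasone 24 h. Dexamethasone differed from saline by 0.22 at 12 h, within spot error, and by -0.52 at 24 h. The level of the CGRP probe minus that of the calcitonin probe, relative to baseline, was -1.39 on noise only, -2.83 on saline 12 h, -1.50 on dexamethasone 12 h, -2.33 on saline 24 h and -0.19 on dexamethasone 24 h. The probes thus differed from baseline unequally on noise only, both saline arrays and dexamethasone 12 h, whereas on dexamethasone 24 h both lay above baseline and their intervals overlapped. A value for Calca averaged over both probes therefore mixes opposite differences: with that average, noise only was 0.28 above baseline instead of -0.41.

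**Figure D2:**
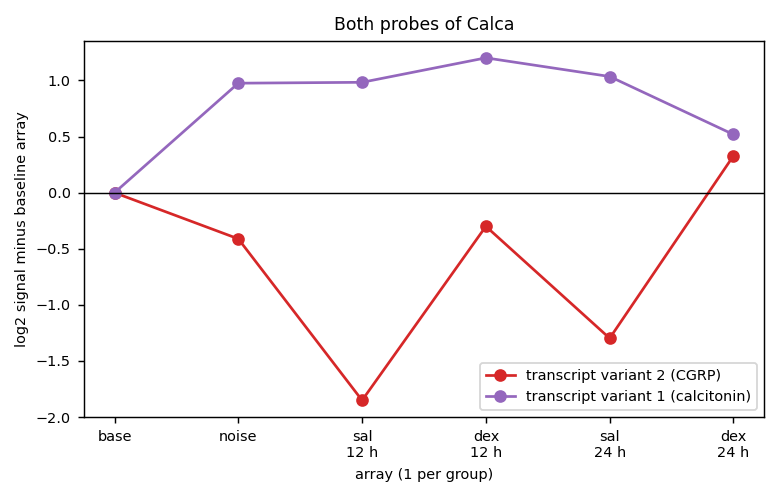
Both Calca probes on the 6 arrays, as log2 signal minus the baseline array; the red line is the CGRP transcript and the purple line the calcitonin transcript, and each point is 1 array. The CGRP probe reaches -1.85 on saline 12 h while the calcitonin probe lies between 0.52 and 1.20 on all arrays after noise.

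Tac1, the precursor of substance P and neurokinin A, differed least over the arrays, by 2.88-fold from lowest to highest. Its brightest probe gave 1.84, 1.54, 0.67, 1.47, 1.34 and 2.20. Saline 12 h lay below the rest, while saline 24 h was within spot error of dexamethasone 12 h. Saline was 2.24-fold below baseline at 12 h and 1.41-fold at 24 h, and dexamethasone was 1.74-fold above saline at 12 h and 1.81-fold at 24 h. The probe printed above across the splice junction gave differences of -1.38 and -0.65 for saline against baseline, and of 0.77 and 1.06 for dexamethasone against saline, at 12 h and 24 h. The remaining 2 Tac1 probes were at background on all arrays.

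Avil encodes advillin, an actin-binding protein of sensory neurons that is used as a marker of their whole class, and not of nociceptors alone. Its brightest probe gave 2.31, 1.82, 0.10, 1.41, 0.61 and 2.81. Every array differed from its neighbour in the order by more than spot error, from dexamethasone 24 h down to saline 12 h. Saline was 4.62-fold below baseline at 12 h and 3.24-fold at 24 h, and dexamethasone was 2.48-fold above saline at 12 h and 4.59-fold at 24 h. The junction probe printed above, on an earlier part of the transcript, gave -2.49 and -1.96 for saline against baseline, and 1.41 and 2.31 for dexamethasone against saline, at 12 h and 24 h. Both Avil probes thus had the same order of arrays.

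Counted by comparison, 1 of 9 measured members was at least 2-fold lower on noise only than on baseline and 0 were higher, where 3.29% of 23997 measured genes were lower and 2.59% higher. On saline 12 h, 8 of 8 measured members were at least 2-fold below baseline and 0 above it, beside 3.33% and 4.51% of all measured genes. On saline 24 h, 7 of 8 were below and 0 above, beside 1.74% and 1.72%, and Tac1 was the exception. Dexamethasone was at least 2-fold above saline at 12 h for 6 of 8 and below it for 0, beside 1.69% and 1.82%, with P2rx3 and Tac1 under that size. At 24 h the counts were 7 of 8 and 0, beside 1.64% and 1.53%, with Tac1 under it. The members were chosen on these contrasts, so nothing is read from the counts. Just inside the 2-fold threshold were Calcb on saline 24 h at 2.02-fold, Mrgprd on noise only at 2.03-fold and P2rx3 on saline 12 h at 2.09-fold, and just outside it were Tac1 at 1.81-fold with dexamethasone at 24 h and 1.74-fold at 12 h.

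Medians over the measured members were -0.30 for noise only, -2.03 for saline 12 h and -1.55 for saline 24 h against baseline, and 1.43 and 1.96 for dexamethasone against saline at 12 h and 24 h. Over all measured genes the medians of the same comparisons were -0.026, 0.070, 0.0050, -0.015 and -0.0040. Past the spot error lay 3 of 9 members for noise only, and 8 of 8 in each of the other 4 comparisons. Of the 14 member probes well above background on all arrays, 13 were below baseline on noise only, on saline 12 h and on saline 24 h, the exception being the calcitonin probe each time. With dexamethasone, 14 of the 14 were above saline at 12 h and 13 at 24 h, where the calcitonin probe was again the exception. Shares of all measured genes past spot error, or of all probes by sign, were not taken, here or below. The members were chosen with these differences known, so nothing is read from such counts. Scaling on the E1A spike-in probes moved the median of all genes to -0.76 for saline 12 h against baseline, and the median of the members to -2.85.

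**Figure D3:**
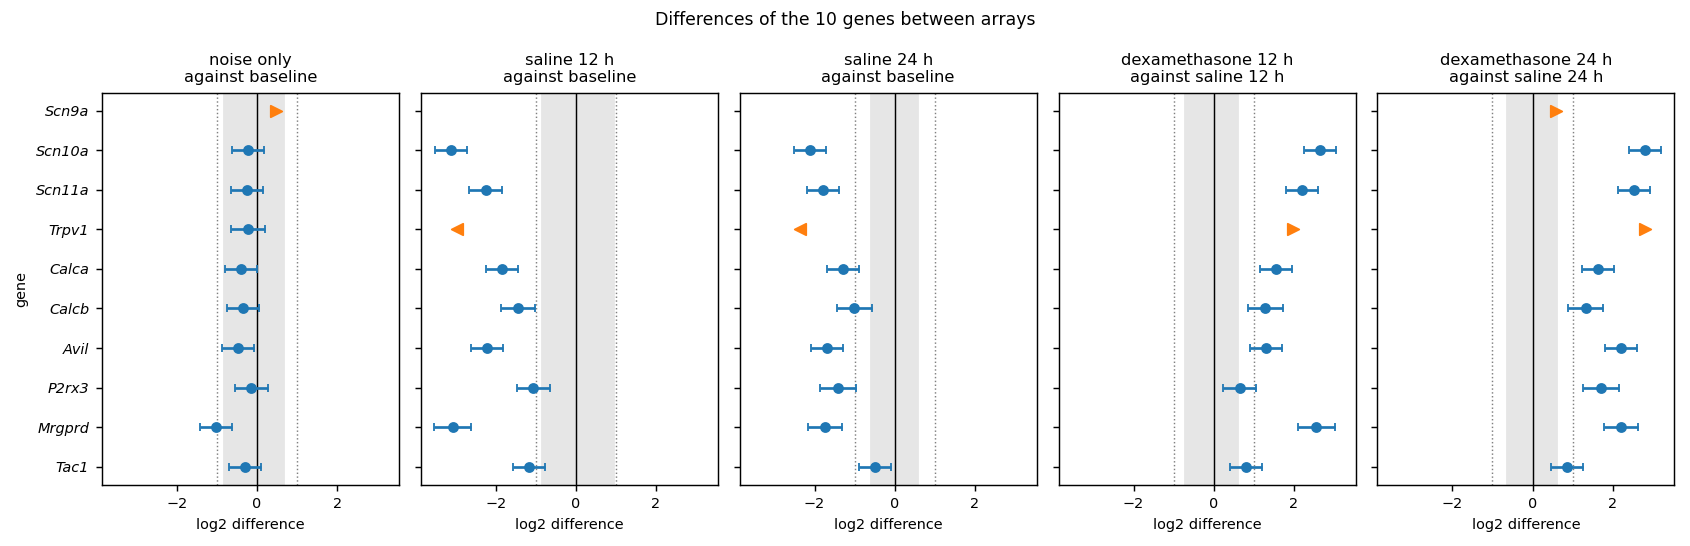
Log2 difference of each of the 10 genes in the 5 comparisons. Blue points are measured on both arrays, with bars of 1.96 spot errors. Orange triangles are bounds that point away from 0 and leave out spot error. The grey band holds the central part of all measured genes, from the 5th to the 95th percentile. Dotted lines mark 2-fold. Among the genes measured on both arrays, Scn10a lies farthest from 0 in the saline and dexamethasone panels, and Tac1 nearest on saline 24 h.

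Set against baseline, a comparison added after the data were seen, the dexamethasone arrays lay on either side of it. On dexamethasone 12 h, 9 of 9 measured members were below baseline, from Trpv1 at -0.99 to Scn11a at -0.05, and 0 were 2-fold lower or higher, beside 2.5% and 4.68% of all measured genes. Their median was -0.41, and 5 of 9 lay past spot error, namely Trpv1, Avil, Mrgprd, Scn10a and P2rx3; Calca turned to 0.45 when its probes were averaged. On dexamethasone 24 h, 9 of 9 were above baseline, from P2rx3 at 0.30 to Scn11a at 0.74, and 0 were 2-fold higher or lower, beside 1.3% and 2.03%. Their median was 0.44, and 5 of 9 lay past spot error, but on spike-in scaling, which put the median of all genes at -0.39, Calca, Calcb, P2rx3 and Tac1 were below 0 and the members' median was 0.039. With probes averaged, Tac1 was at -0.21.

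Other genes of nociceptors were taken as lists, and are given by count and median. Of 9 measured other channels of nociceptors and thermoreceptors, 2 were at least 2-fold below baseline on saline 12 h and the median was -0.23. These were Trpa1, the channel opened by mustard oil, which was 7.85-fold lower on saline 12 h and 4.83-fold higher with dexamethasone than with saline at 12 h, and Scn3b, a sodium channel beta subunit, 4.28-fold lower and 2.17-fold higher. Of 10 measured trophic receptors and transcription factors, 5 were 2-fold lower on saline 12 h, the median was -0.96, and 4 were 2-fold higher with dexamethasone than with saline at 12 h and 5 at 24 h. Prdm12, a transcription factor that nociceptors need to form, was 8.31-fold lower and 4.58-fold higher in those 12 h comparisons, and Ret, a receptor of the GDNF family, was 2.90-fold higher with dexamethasone.

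Among the other neuropeptides, 5 of 8 measured were 2-fold below baseline on saline 12 h, with a median of -1.23. Vip was 7.58-fold lower and Adcyap1, the precursor of PACAP, 6.01-fold lower. At 24 h, 4 of 7 were 2-fold higher with dexamethasone than with saline and 1 lower, with a median of 1.43. The lower one, at -3.47 (log2), was farther from 0 than the highest, at 2.21. On saline 24 h the list ran from -2.29 to 3.71 relative to baseline. For other Mrgpr receptors and itch genes, 2 of 5 measured were 2-fold lower on saline 12 h (median -0.55), and 0 and 1 of 5 were 2-fold higher with dexamethasone at 12 h and 24 h. Sst, somatostatin, was 7.17-fold lower on saline 12 h, and its log2 difference from baseline was -2.67 already on noise only.

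The receptors for the peptides differed less. Of 7 measured receptors of CGRP and tachykinins, 0 were 2-fold apart in any of the 5 comparisons, and their medians lay between -0.21 and 0.01. Ramp1, the subunit that turns the calcitonin receptor-like receptor into the CGRP receptor, was 1.93-fold above baseline on saline 12 h, opposite in sign to its ligand's probe. Of 10 other voltage-gated sodium channel genes, 3 were 2-fold below baseline and 1 above it on saline 12 h (median -0.20), and 0 and 1 were 2-fold higher with dexamethasone at 12 h and 24 h. Of 7 measured mechanoreceptor and proprioceptor genes, 1 was 2-fold lower and 1 higher on saline 12 h, with a median of -0.13.

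**Figure D4:**
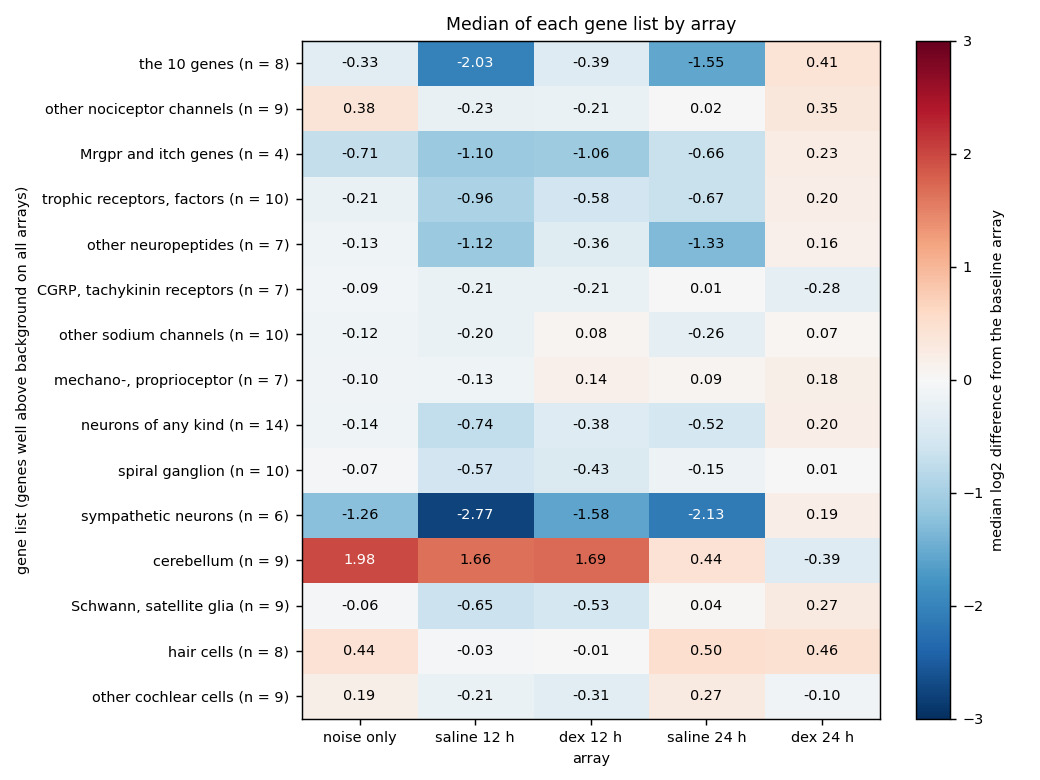
Median log2 difference from the baseline array for the members and each of the 14 other gene lists, over the genes well above background on all arrays (n beside each name); blue is lower and red higher than baseline. The members and the sympathetic list are lowest on the saline arrays, at -2.03 and -2.77 on saline 12 h, and the cerebellar list is highest on the noise only array, at 1.98.

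Markers of other neurons and of glia also differed between these arrays, and their part in the members' values was not tested. The 12 markers of sympathetic neurons had a summed signal, as a multiple of the array's 75th percentile, of 28.0, 6.51, 7.74, 6.40, 5.10 and 30.6. All 12 were well above background on baseline and dexamethasone 24 h, 10 on noise only, saline 12 h and dexamethasone 12 h, and 6 on saline 24 h, where Dbh, Slc6a2, Phox2a, Hand2, Hand1 and Chrna3 were at background. Dbh, the enzyme that makes noradrenaline, was 350-fold below baseline on saline 12 h. Its level there, -5.35, was near the lowest that this array could tell from background, -5.76, so the size is uncertain. On dexamethasone 12 h Dbh was at -2.96, also far below its baseline level of 3.11. The sympathetic sum was low on noise only and dexamethasone 12 h too, and the sum of the members was 20.3, 15.7, 5.37, 14.9, 8.12 and 28.1. By medians relative to baseline the sympathetic list ran in the same order of arrays as the members. Over its 6 genes on all arrays, the median was -1.26 on noise only, -2.77 on saline 12 h and -1.58 on dexamethasone 12 h. It was -2.13 on saline 24 h and 0.19 on dexamethasone 24 h.

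The 14 markers of neurons of any kind had sums of 383, 343, 231, 276, 284 and 444, and all 14 were well above background on all arrays. On saline 12 h, 5 of 14 were 2-fold below baseline with a median of -0.74, led by Prph, an intermediate filament of peripheral neurons, at 3.99-fold lower. Markers of spiral ganglion neurons, the auditory neurons of the cochlea, had sums between 15.8 and 23.9. On saline 12 h, 2 of these 10 were 2-fold below baseline. Neurod1, also a gene of cerebellar neurons, was 8.14-fold above it and is part of the sums. The median of the list was -0.57 on saline 12 h and -0.15 on saline 24 h. Schwann cell and satellite glia markers had sums between 143 and 282, with medians of -0.65 and 0.04. The 10 cerebellar markers ran otherwise, with sums of 15.7, 82.5, 63.1, 68.6, 21.7 and 13.4, high on noise only and both 12 h arrays. Hair cell markers had medians of -0.08 and 0.50 on saline 12 h and 24 h, and markers of the other cochlear tissues -0.23 and 0.24.

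The members ran closely together over the 6 arrays. For the 8 on all arrays, Pearson's r of each with the mean of the others was 0.910 for P2rx3 to 0.998 for Calca, as a description of 6 points from the same arrays and the same choice of genes. Among 1891 other genes that were well above background on all arrays and had an SD of at least 0.5 over them, the 10 with the profile most like the mean of the 8 members included Isl2, Prdm12, Ret, Tusc5, Tlx2, Gpr161, Hs3st4, Stx1a and Cidea, with r from 0.992 down to 0.975. Isl2, a LIM homeodomain transcription factor, differed from baseline by -1.12 on saline 12 h and by 0.41 on dexamethasone 24 h. Cidea, a lipid droplet protein known from brown fat, differed from it by -1.51 and 0.84.

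**Figure D5:**
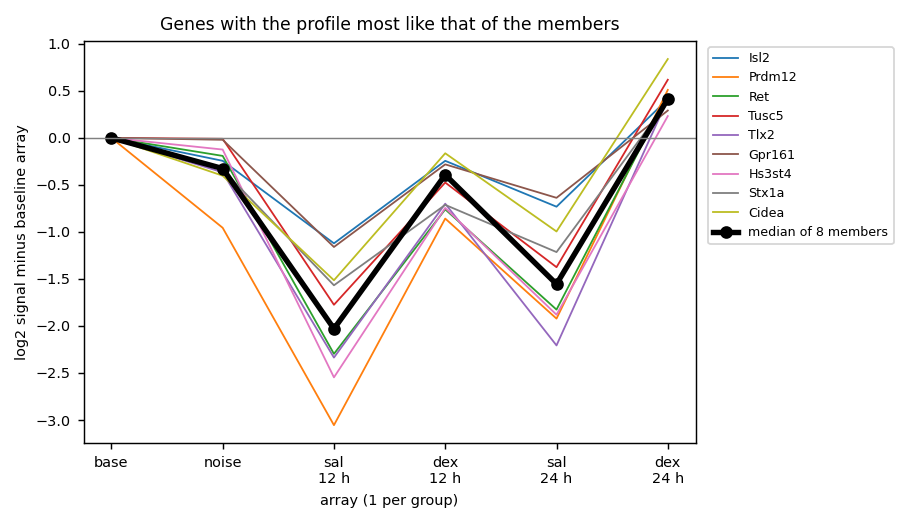
Log2 signal minus the baseline array for 9 of the 10 genes most like the members in profile (thin lines) and the median of the 8 members on all arrays (thick black line with points); each position on the horizontal axis is 1 array. All lines are low on the saline arrays, between -1.12 and -3.05 on saline 12 h, and above baseline on dexamethasone 24 h, where spike-in scaling turns Hs3st4, Gpr161 and Stx1a below baseline.

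The promoter windows of 8 of the 10 members were in the RefSeq table of GRCm38.p6. Among the motifs searched on both strands, TGACG (reverse CGTCA), the core of the cAMP response element, was in the 250 bases before the start site of Calca, Scn10a and Tac1, and in 17.8% of 32851 promoters. TGTGGT (reverse ACCACA), the core that Runx factors bind, was in 2 of the 8, Avil and Trpv1, against 14.0% of promoters, and CANNTG, the E-box, in 5 of the 8, against 66.2%. TAATTA, a homeodomain core, was in the Tac1 window alone, against 4.84%, and TATAAA (reverse TTTATA), the TATA box, in 0 of the 8, against 12.4%. The Scn10a window (chr9:119719033-119719282, minus strand) held TGACG or its reverse 3 times and the Tac1 window (chr6:7554811-7555060, plus strand) 2 times, and both are printed with these matches in capitals because they hold the most. These are matches of letters and not sites of binding.
Scn10a: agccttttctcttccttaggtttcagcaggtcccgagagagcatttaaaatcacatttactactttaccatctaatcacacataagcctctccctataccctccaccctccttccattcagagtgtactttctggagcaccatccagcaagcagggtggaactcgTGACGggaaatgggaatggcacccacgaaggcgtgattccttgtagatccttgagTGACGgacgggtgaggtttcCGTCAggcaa
Tac1: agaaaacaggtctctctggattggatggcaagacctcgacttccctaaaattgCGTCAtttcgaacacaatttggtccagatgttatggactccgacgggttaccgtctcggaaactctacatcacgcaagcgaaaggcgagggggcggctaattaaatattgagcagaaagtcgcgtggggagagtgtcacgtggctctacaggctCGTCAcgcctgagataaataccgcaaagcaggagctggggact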

How the data were processed

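Per the labels, 6 cochlear RNA samples, 1 for each group, went onto 6 Agilent arrays labelled with a single dye. The deposited scanner files hold linear intensity values, which the authors extracted with Agilent Feature Extraction 10.10.1.1, per the file headers, and 0 or 1 flags for well above background, saturation and outliers. The deposited series matrix gives these arrays as log2 values. For 100% of probes these equalled log2 of the scanner's processed signal minus a constant, within 0.002. Their column medians were -2.952, -2.979, -2.85, -2.81, -2.928 and -2.899 in the array order of the report, so scale, centring and direction are known from the values.

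Each array had 59305 non-control spots. Outlier spots were left out (16 probes were lost to this or to a missing name), log2 was taken, the array's 75th percentile subtracted and spots of 1 probe averaged. A gene was represented by the brightest of its probes, judged by the mean of all arrays. The number of arrays limits the precision. The members and the 14 gene lists were chosen with earlier results of these data known. Named genes were all members, the 2 genes of each list with the largest difference in saline 12 h against baseline and in dexamethasone 12 h against saline 12 h, and the 10 most like the members in profile. A few genes outside this rule (the sympathetic markers at background) were named after their values were seen. The listed symbols Accn2, Accn3 and Fam38b, older names of other listed genes, matched no probe. On simulated data for saline 12 h against baseline over 37074 genes, 100% of 200 genes changed 4-fold were recovered, with 0 false calls. The simulation held spot error alone, with no variation between animals or slides, so it checks the calculation and not the design. The changed genes were drawn from brighter ones and every gene was set as well above background. The recovery therefore does not apply to dim genes. Alternatives were other normalizations, thresholds, filters and probe rules. Work was done in Python 3.11.15 with pandas 2.3.3, numpy 2.4.6 and matplotlib 3.10.9, and in R 4.3.3 with limma 3.58.1 for normexp (offset 50) and quantile normalization. Some genes that the naming rule selects are not reported here.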

Additional observations from a re-analysis of the deposited data

Results flagged for a closer look

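The difference between dexamethasone and saline had opposite signs at 12 h and 24 h for 4 named genes, with 1 array per group, and the difference between the times was not tested. Car8 was 0.40 (log2) above saline at 12 h and -1.20 from it at 24 h. Neurod1, a transcription factor of spiral ganglion and cerebellar neurons, was at 0.44 and -1.75. Zic1, of cerebellar granule cells, was at 0.47 and -0.45. Mag, a myelin protein, ran the other way, at -0.48 and 0.73. None of the 4 is a member. All 8 members measured at both times were above saline at both, but they were chosen on these contrasts, so nothing is read from this.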

How the results depend on the processing

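No paired analysis was possible because each group has 1 array and the only replicate number is 1, and for the same reason no replicate could be left out. In the 5 planned comparisons each measured member stayed on its side of 0 under every setting, except Calca for noise only with probes averaged. Members 2-fold apart numbered 0 for noise only with a 3-fold threshold, quantile normalization, normexp with quantile, or brighter genes only (which leaves 5 members). For saline 12 h they numbered 5 with 3-fold, brighter genes only or probes averaged; the median was -2.85 with spike-in scaling and -1.58 with noise only as the reference. For saline 24 h they numbered 4 with 3-fold, brighter genes only or noise only as the reference, and the median was -1.01 with probes averaged and -1.05 with that reference. For dexamethasone against saline they numbered 3 at 12 h with 3-fold and 4 at 24 h with brighter genes only. The reference change and the comparisons of dexamethasone with baseline were chosen after seeing the data. For dexamethasone 12 h against baseline, 2 members were apart at 1.5-fold, 1 with quantile normalization, 4 with spike-in scaling (median -0.97) and 1 with the series matrix values. For dexamethasone 24 h against baseline, 2 were apart at 1.5-fold, 1 without the filter on dim probes and 1 with probes averaged. A stricter threshold and a filter on brightness lower a count by construction, and for the other settings the cause was not tested. Over all genes, spike-in scaling turned 1089 higher and 804 lower genes on saline 12 h into 222 and 7402, no filter on dim probes gave 3919 and 1542, and normexp with quantile gave 499 and 487. Signals near background limit Scn9a and, on the saline arrays, Trpv1.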

Other observations

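Among the genes nearest to the members in profile, Tlx2, a homeobox gene, differed from baseline by -2.34 on saline 12 h, -2.21 on saline 24 h and 0.41 on dexamethasone 24 h. Hs3st4, a heparan sulfate sulfotransferase, differed by -2.55, -1.88 and 0.23. Stx1a, a syntaxin of the presynaptic release machinery, differed by -1.57, -1.21 and 0.39. Tusc5 differed by -1.77, -1.37 and 0.62, and Gpr161, a G protein-coupled receptor, by -1.16, -0.64 and 0.29. With spike-in scaling Hs3st4, Stx1a and Gpr161 lie below baseline on dexamethasone 24 h.

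Relative to baseline, Sst was at -2.84 on saline 12 h and -2.81 on dexamethasone 12 h. On dexamethasone 24 h Sst was at 0.15, where spike-in scaling alone moved the median of all genes from 0.013 to -0.39. Pou4f1, a transcription factor of sensory neurons at large, was 1.19 above baseline on saline 24 h, where the members were low. These genes were named after their values were seen.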
